A study of Mus musculus with 14 samples.

Results

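Hmox1 and 9 further genes of the NRF2, heme and iron pathways were followed in whole kidneys of female mice born at term or preterm and made diabetic or not. The 10 genes (Hmox1, Txnrd1, Srxn1, Gclc, Gclm, Slc7a11, Nqo1, Blvrb, Slc40a1 and Fth1) were listed by name and are 10 of the 56980 gene IDs counted. All 10 were found under 1 ID each, and all were among the 22339 IDs with more than 10 reads over the 14 libraries. The list was drawn up around Hmox1, which was selected on its measured difference between preterm and term diabetic kidneys in these same counts. The levels and differences of the 10 are therefore given as a description and without p-values.

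NRF2 (Nfe2l2) is a transcription factor that KEAP1 holds in the cytoplasm and hands to the CUL3 ubiquitin ligase. Oxidants and electrophiles modify KEAP1, and NRF2 then enters the nucleus, pairs with a small MAF protein and binds antioxidant response elements in genes for glutathione, thioredoxin and quinone metabolism. BACH1, a repressor that heme releases from DNA, occupies many of the same elements, and Hmox1 is known for its control by both. Heme oxygenase-1, the product of Hmox1, opens heme into biliverdin, carbon monoxide and iron. The iron is stored in ferritin or leaves the cell through ferroportin. In the kidney, the proximal tubule is the segment best known for inducing heme oxygenase-1 after injury or a load of heme protein.

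The mice were outbred wild-type CD-1 females of 18 weeks, with 4 T-ND (term nondiabetic), 4 T-D (term diabetic), 3 PT-ND (preterm nondiabetic) and 3 PT-D (preterm diabetic) kidneys and 1 RNA-seq library per mouse. Diabetic mice received streptozotocin (STZ), a toxin to the insulin-producing beta cells, in young adulthood, and nondiabetic mice are labelled as untreated. Preterm pups were delivered by Caesarean section and raised by foster mothers given acepromazine, whereas term pups were born naturally and kept by their own mothers, so preterm birth cannot be told apart from these. A repeat round of STZ was given to some PT-D mice of the study and to no T-D mouse. Mice of all groups received cationic ferritin, an iron-carrying protein used for imaging, before the kidneys were taken.

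The libraries held 16697246 to 28673176 counted reads, with a median of 18765582. Levels are TMM-normalised read counts, which are read counts scaled to a common library size, and replicates are given in the order of their labels. Xist was present in all 14 libraries (75.0 to 328 counts per 1e+06 counted reads, CPM), and 4 Y-linked genes together reached 0.105 CPM at most. The 6 proximal tubule markers were all detected and summed to between 3927 and 8301 CPM.

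The T-ND libraries did not form 1 group for these genes. T-ND replicate 2 was the highest of the 14 libraries for 6 of the 10 genes and T-ND replicate 1 was among the top 3 for 6, while T-ND replicates 3 and 4 were in the top 3 for none. Replicates 1 and 2 were together the 2 highest libraries for 4 of the 9 listed genes with a mean of at least 50 normalised counts (44.4%: Gclm, Nqo1, Srxn1 and Txnrd1), against 533 of 12169 genes (4.38%) over the whole table. The same held for 6 of 21 other NRF2 targets (28.6%) and for 0% to 14.3% of the genes in the remaining lists followed below. T-ND replicates 1 and 2 both carry the letter a in their library names, as do 3 further libraries (replicate 1 of T-D, replicate 2 of PT-ND and replicate 1 of PT-D). What the letter stands for is not given in the sources used here, and its part in the result was not tested. The log2 fold changes of the 10 genes in each comparison with T-ND are therefore given also from the libraries without the letter, 2 T-ND, 3 T-D, 2 PT-ND and 2 PT-D.

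**Figure D1:**
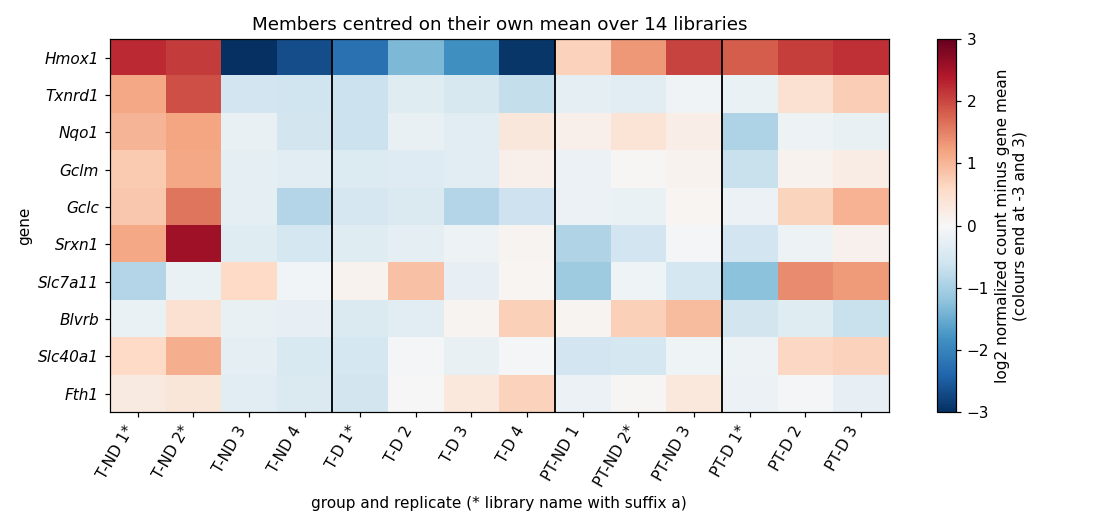
Level of each of the 10 genes in each of the 14 libraries, as log2 of the normalised count minus the mean of that gene over all libraries. Rows are genes and columns are libraries by group, an asterisk marks a library name with the letter a, and T-ND replicates 1 and 2 lie above T-ND replicates 3 and 4 in every row but that of Slc7a11.

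Stretches of promoter are shown for the genes that hold a letter match to the core of the antioxidant response element. Windows from 250 bases before to 50 bases after a transcription start, taken from RefSeq on GRCm38.p6 (the reads were aligned to GRCm39), were at hand for 7 of the 10 genes. The sequence TGACNNNGC was found on either strand in 3 of these 7, Txnrd1, Gclm and Srxn1, and was not in the windows of Nqo1, Slc7a11, Blvrb and Fth1. Over all genes with a window, 3781 of 27025 (13.99%) held it. Hmox1, Gclc and Slc40a1 were not searched. The stretches lie at chr10:82859074-82859162 for Txnrd1, chr3:122245383-122245471 for Gclm and chr2:152105542-152105570 for Srxn1, each on the plus strand, and capitals mark the match, which reads as the motif on the opposite strand.
Txnrd1: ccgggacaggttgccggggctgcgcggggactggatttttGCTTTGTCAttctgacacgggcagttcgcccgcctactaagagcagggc
Gclm: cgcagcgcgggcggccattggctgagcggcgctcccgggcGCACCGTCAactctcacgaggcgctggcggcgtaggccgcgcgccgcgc
Srxn1: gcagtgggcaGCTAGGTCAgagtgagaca
The match begins 92 bases before the start in Txnrd1 and 134 before it in Gclm, and 29 bases after it in Srxn1. A match is a description of the sequence. Of the other genes with a window, the motif was in 4 of 11 NRF2 regulators, 8 of 23 other NRF2 targets, 3 of 7 genes of heme transport and scavenging, 4 of 17 iron genes and 1 of 9 genes of heme synthesis and breakdown.

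Hmox1 (chromosome 8, 75820241 to 75827217, plus strand, GRCm39) varied most of the 10 genes, with the highest library 51.6 times the lowest. The 4 T-D kidneys held 3599, 6651, 4704 and 2232 normalised counts. The 3 PT-D kidneys held 59759, 70854 and 76462. Every PT-D kidney was far above every T-D kidney. The PT-ND kidneys held 27214, 41303 and 69172, and the T-ND kidneys held 79419.7, 72243, 1539 and 2674. Nondiabetic term kidneys thus included both the highest and the lowest Hmox1 of the whole set.

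Ranked over all libraries, Hmox1 had its widest gap between 6651 and 27214 normalised counts, with the lower side holding 6 libraries and the upper side 8. The lower side was made of the 4 T-D kidneys and T-ND replicates 3 and 4. The upper side was made of all 6 preterm kidneys and T-ND replicates 1 and 2. Hmox1 reads were on average 0.361% of counted reads in PT-D, 0.219% in PT-ND, 0.195% in T-ND and 0.0204% in T-D. The group means were 69025 ± 8501 normalised counts (SD, n = 3) in PT-D, 45896 ± 21353 (n = 3) in PT-ND, 38969 ± 42668 (n = 4) in T-ND and 4297 ± 1867 (n = 4) in T-D. In that order each neighbouring pair of groups overlapped. In bulk RNA of a whole kidney, fewer cells of a type and less RNA per cell cannot be told apart.

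**Figure D2:**
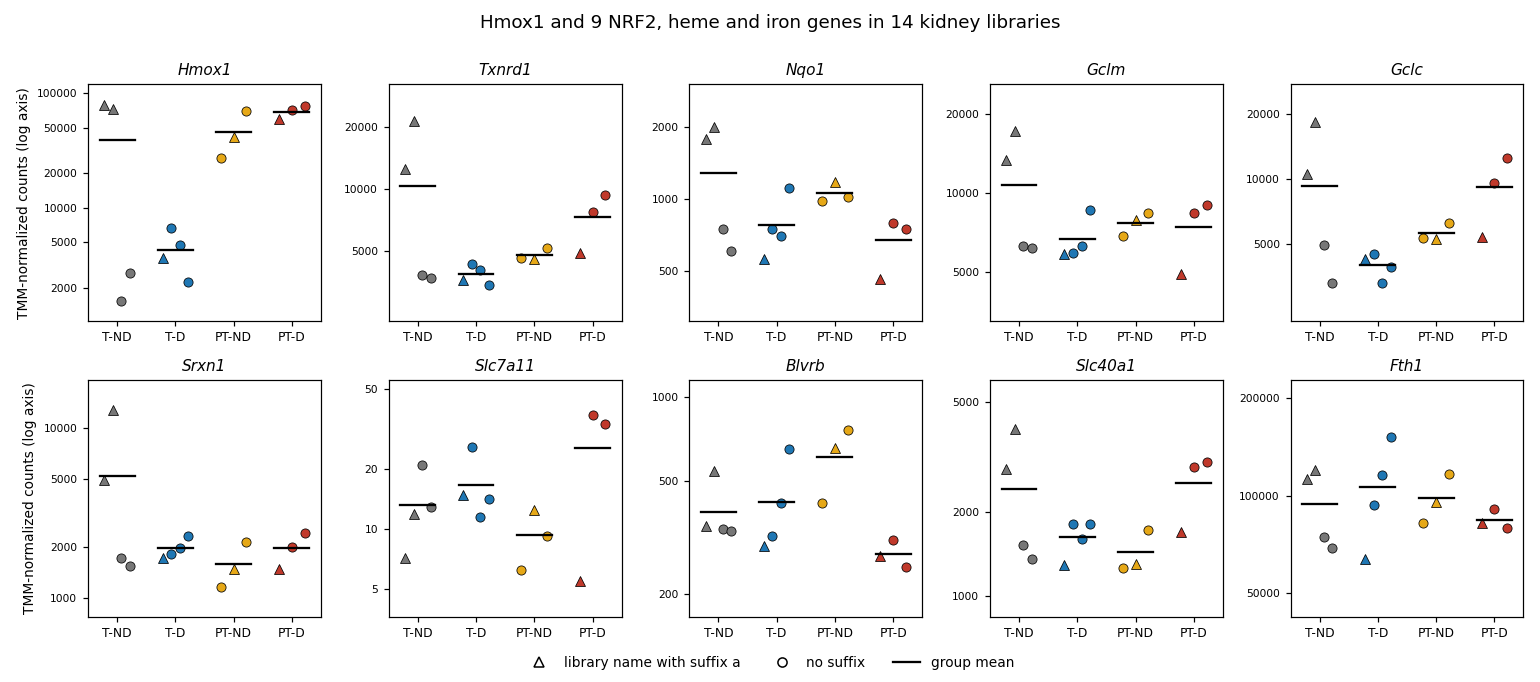
Normalised read count of each of the 10 genes in every kidney, on log axes, by group. Points are mice, bars are group means, triangles are libraries with the letter a in their names, and Hmox1 is at 59759 or more in the 3 PT-D kidneys and at 6651 or less in the 4 T-D kidneys.

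Txnrd1 and Srxn1 serve the thioredoxin system. Txnrd1, cytosolic thioredoxin reductase, held 4866, 7692 and 9314 normalised counts in PT-D and 3608, 4337, 4050.5 and 3424 in T-D. Every PT-D kidney was above every T-D kidney. The PT-ND kidneys, at 4595, 4547 and 5185, were also above every T-D kidney. The T-ND kidneys held 12569.8, 21560.4, 3797 and 3684, so replicates 1 and 2 were above every other library and replicates 3 and 4 were within the T-D range. Srxn1, sulfiredoxin, which repairs over-oxidised peroxiredoxins, showed the same split in T-ND, at 4948, 12709, 1713 and 1533. Its other 10 libraries lay between 1166 and 2410.3, and no pair of groups among T-D, PT-ND and PT-D was separated.

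Gclc, Gclm and Slc7a11 feed glutathione synthesis. Gclc, the catalytic subunit of glutamate-cysteine ligase, held 5359, 9598 and 12535 normalised counts in PT-D against 4275, 4494, 3308 and 3906 in T-D, with no overlap. PT-ND kidneys held 5317, 5256 and 6265, again above every T-D kidney. In T-ND Gclc was at 10571, 18314, 4925 and 3299. Gclm, the modifier subunit of the same enzyme, did not separate PT-D (4899, 8358 and 9012) from T-D (5847, 5926, 6264 and 8598). PT-ND held 6842, 7898 and 8385 for Gclm, and T-ND held 13347, 17218, 6271 and 6174. The 2 subunits of the ligase thus differed in whether PT-D and T-D kidneys overlapped.

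Slc7a11, the cystine transporter that supplies cysteine for glutathione, was the lowest of the 10 genes, with 6 to 49 reads per library. It held 5.47, 36.9 and 33.6 normalised counts in PT-D, 14.7, 25.6, 11.4 and 14.2 in T-D, 6.26, 12.4 and 9.23 in PT-ND and 7.13, 11.9, 21.0 and 12.9 in T-ND. All groups overlapped, and PT-D replicate 1 was the lowest library of all. Nqo1, the quinone reductase often used as a readout of NRF2, held 465, 797 and 753 in PT-D and 979, 1176 and 1017 in PT-ND, with every PT-D kidney lower. It held 563, 753, 699.6 and 1117 in T-D and 1793, 2013, 753 and 607 in T-ND. PT-D, highest for Hmox1, thus had the lowest group mean for Nqo1 (672 ± 180.3, SD, n = 3).

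Blvrb, a biliverdin and flavin reductase that acts downstream of heme oxygenase, ran lowest in PT-D. The PT-D kidneys held 273, 310.0 and 249 normalised counts, below all 3 PT-ND kidneys (418, 656 and 763) and all 4 T-ND kidneys (347, 543, 339 and 333). The T-D kidneys held 296, 320.5, 419 and 650.0 and overlapped PT-D. Blvrb was the 1 gene of the 10 for which PT-D was separated from both nondiabetic groups.

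Slc40a1 and Fth1 handle the iron that heme releases. Slc40a1, ferroportin, the only known cellular iron exporter, held 1701, 2909 and 3034 normalised counts in PT-D and 1299, 1812, 1608 and 1823 in T-D. PT-D replicates 2 and 3 were above every T-D and PT-ND kidney (PT-ND 1268, 1309 and 1735), and replicate 1 was within them. T-ND held 2856, 3984, 1530.4 and 1365. The Spic transcript of iron-recycling macrophages was at 1.60 CPM or less in every library. Fth1, the ferritin heavy chain, varied least, 2.38-fold from lowest to highest, and held 63579, 93229, 115723 and 151128 in T-D, 82579, 91071 and 79381 in PT-D, 82519, 95459 and 116315 in PT-ND and 112362, 119867, 74435 and 69022 in T-ND. No groups were separated for Fth1, whose many processed pseudogenes can take or lose reads in a count of uniquely mapped reads.

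Per kilobase of transcript and averaged over the 14 libraries, Fth1 stood at 103542 normalised counts and Hmox1 at 23454. Gclc (2019), Txnrd1 (2003) and Gclm (1294) followed, then Slc40a1 (582), Srxn1 (390.3), Blvrb (366) and Nqo1 (361), and Slc7a11 was last at 1.72. In PT-D, Hmox1 alone stood at 43770.0 per kilobase, against 2725 in T-D.

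The comparison of PT-D with T-D asks what preterm birth adds in the diabetic state. Hmox1 was 16.01-fold higher in PT-D, or 4.00 ± 0.32 (SE) on the log2 scale. Leaving out each library in turn gave 3.79 to 4.29, and the libraries without the letter gave 4.01. Gclc was higher by 1.19 ± 0.25 on the log2 scale, Txnrd1 by 0.91 ± 0.21 and Slc40a1 by 0.63 ± 0.21. Slc7a11 was at 0.62 ± 0.60, Gclm at 0.15 ± 0.23, Srxn1 at -0.01 ± 0.19, Nqo1 at -0.23 ± 0.25, Fth1 at -0.33 ± 0.27 and Blvrb at -0.61 ± 0.26. A gene was called where edgeR's quasi-likelihood test, corrected over all genes, gave an adjusted p under 0.05 and the log2 fold change lay above 1 or below -1. Of the 10 genes 1, Hmox1, was called, where 0.193% of the 22294 genes tested were. DESeq2 called 2, Hmox1 and Gclc, where it called 4.52% of its genes. PT-D and T-D did not overlap for 3 of the 10 genes and for 23% of all genes. The median log2 fold change of the 10 was 0.38, beside 0.06 over all genes tested. Because the list was drawn up with this contrast known, nothing is read from these counts.

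Markers of other cells were set beside the same comparison. Of the listed markers Mmp9 was called in PT-D against T-D by edgeR and no other was, and their summed levels are given without a test. The summed level of 5 endothelial markers was 311 to 345 CPM in PT-D and 119 to 231 in T-D, and 3 of the 5 (Pecam1, Cdh5 and Kdr) were higher in every PT-D than in every T-D kidney. The 4 neutrophil markers summed to 59.9 to 217 in PT-D and 13.4 to 53.5 in T-D, with S100a8, S100a9 and Mmp9 separated. Of the 8 macrophage markers 1, Adgre1, was separated, with sums of 91.4 to 149 in PT-D and 99.0 to 189 in T-D. Of the 6 red cell genes none was separated and Hba-a2 was at 0 in all libraries. The proximal tubule markers summed to 6609 to 8122 in PT-D and 3927 to 7831 in T-D, and 1 of the 6, Slc5a12, was separated. The 4 markers of the loop, distal tubule and collecting duct summed to 1515 to 3740 in PT-D and 1823 to 2891 in T-D. None of those 4 was separated. The part of these markers in the levels of Hmox1, Gclc and Txnrd1 was not tested.

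STZ in preterm mice was addressed by PT-D against PT-ND. Blvrb was lower in PT-D by -1.14 ± 0.22 on the log2 scale and was the 1 gene of the 10 that was called, where 4.95% of the 22303 genes tested were (DESeq2 also called Blvrb alone of the 10, and 8.61% of its genes). Without PT-ND replicate 3 the log2 fold change of Blvrb was -0.95 and Hmox1 was called in its place, where 2.67% of all genes were. Without the lettered libraries Blvrb was at -1.08 and none of the 10 was called. Slc7a11 was at 1.44 ± 0.70, Slc40a1 at 0.83 ± 0.22, Gclc at 0.71 ± 0.26, Txnrd1 at 0.61 ± 0.22, Hmox1 at 0.59 ± 0.29, Srxn1 at 0.30 ± 0.24, Gclm at -0.05 ± 0.22, Fth1 at -0.22 ± 0.19 and Nqo1 at -0.65 ± 0.20. PT-D and PT-ND did not overlap for 2 of the 10, Nqo1 and Blvrb, and for 34.4% of all genes.

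STZ in term mice was addressed by T-D against T-ND. In this pair T-ND replicates 1 and 2 were the 2 highest libraries for Hmox1, Txnrd1, Srxn1, Gclc, Gclm, Nqo1 and Slc40a1. Hmox1 was lower in T-D by -3.20 ± 1.01 on the log2 scale from all libraries, and from those without the letter it was higher by 1.10. Txnrd1 went from -1.45 ± 0.47 to 0.07, Srxn1 from -1.44 ± 0.54 to 0.33 and Gclc from -1.23 ± 0.42 to -0.07. Nqo1 went from -0.74 to 0.33, Gclm from -0.71 to 0.16, Slc40a1 from -0.59 to 0.27, Slc7a11 from 0.28 to -0.0022, Fth1 from 0.15 to 0.74 and Blvrb from 0.09 to 0.46. None of the 10 was called, where 0.0673% of all genes were (DESeq2 called none of the 10 and 1.76% of its genes). Without T-ND replicate 3, Hmox1 was called and so were 1.3% of all genes. None of the 10 had T-D and T-ND apart, against 6.66% of all genes.

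Preterm birth without diabetes, PT-ND against T-ND, gave a log2 fold change of 0.24 ± 1.05 for Hmox1 from all libraries and 4.52 from those without the letter. Srxn1 was at -1.72 ± 0.65 and 0.02, and Txnrd1 at -1.12 ± 0.53 and 0.39. Slc40a1 was at -0.76 and 0.05, Gclc at -0.73 and 0.49, Slc7a11 at -0.51 and -1.12, Gclm at -0.48 and 0.29, Nqo1 at -0.29 and 0.55, Fth1 at 0.06 and 0.47 and Blvrb at 0.65 and 0.81. None of the 10 was called, where 0.0809% of all genes were (DESeq2 called none of the 10 and 1.1% of its genes), and none had groups apart, against 11% of all genes. Without the lettered libraries 1 of the 10, Hmox1, was called, where 0.0773% of all genes were. Those libraries were set apart because of the levels of these same genes, and 2 PT-ND and 2 T-ND kidneys remained. Nothing is therefore read from this call.

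PT-D against T-ND compares both exposures with neither. Hmox1 was at 0.81 ± 1.07 on the log2 scale from all libraries and at 5.11 from those without the letter. Gclc was at -0.03 ± 0.52 and 1.42, Txnrd1 at -0.53 ± 0.57 and 1.17, Slc40a1 at 0.05 and 1.02, and Srxn1 at -1.43 ± 0.66 and 0.42. Nqo1 was at -0.95 and 0.18, Gclm at -0.55 and 0.47, Slc7a11 at 0.92 and 1.04 and Fth1 at -0.16 and 0.24. None of the 10 was called, where 1.45% of all genes were (DESeq2 called none of the 10 and 6% of its genes). From the libraries without the letter 3 of the 10 were called, Hmox1, Slc40a1 and Txnrd1, where 0.316% of all genes were. Blvrb, at -0.50 ± 0.20 and -0.28, was the 1 gene with no overlap between all PT-D and all T-ND kidneys, against 23.2% of all genes. Nothing is read from these counts either.

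The interaction asks whether STZ moved a gene differently in preterm than in term mice, as PT-D minus PT-ND less T-D minus T-ND. It was 3.77 ± 1.30 for Hmox1, 2.04 for Txnrd1, 1.92 for Gclc, 1.72 for Srxn1, 1.40 for Slc40a1 and -1.25 for Blvrb. None of the 10 was called, where 4.45% of all genes were, and DESeq2 called 5 (Hmox1, Txnrd1, Gclc, Slc40a1 and Blvrb), where it called 11% of its genes. From the libraries without the letter the estimate was -0.49 for Hmox1, 0.72 for Txnrd1, 1.01 for Gclc, 0.09 for Srxn1, 0.71 for Slc40a1 and -1.54 for Blvrb. Without T-ND replicate 2 alone it was 0.78 for Srxn1. Slc7a11 went from 1.14 to 2.18, Gclm from 0.64 to 0.04, Nqo1 from 0.07 to -0.70 and Fth1 from -0.39 to -0.96 when the lettered libraries were left out. The 5 pairs and the interaction share libraries, so their values are set side by side and not counted as separate evidence.

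**Figure D3:**
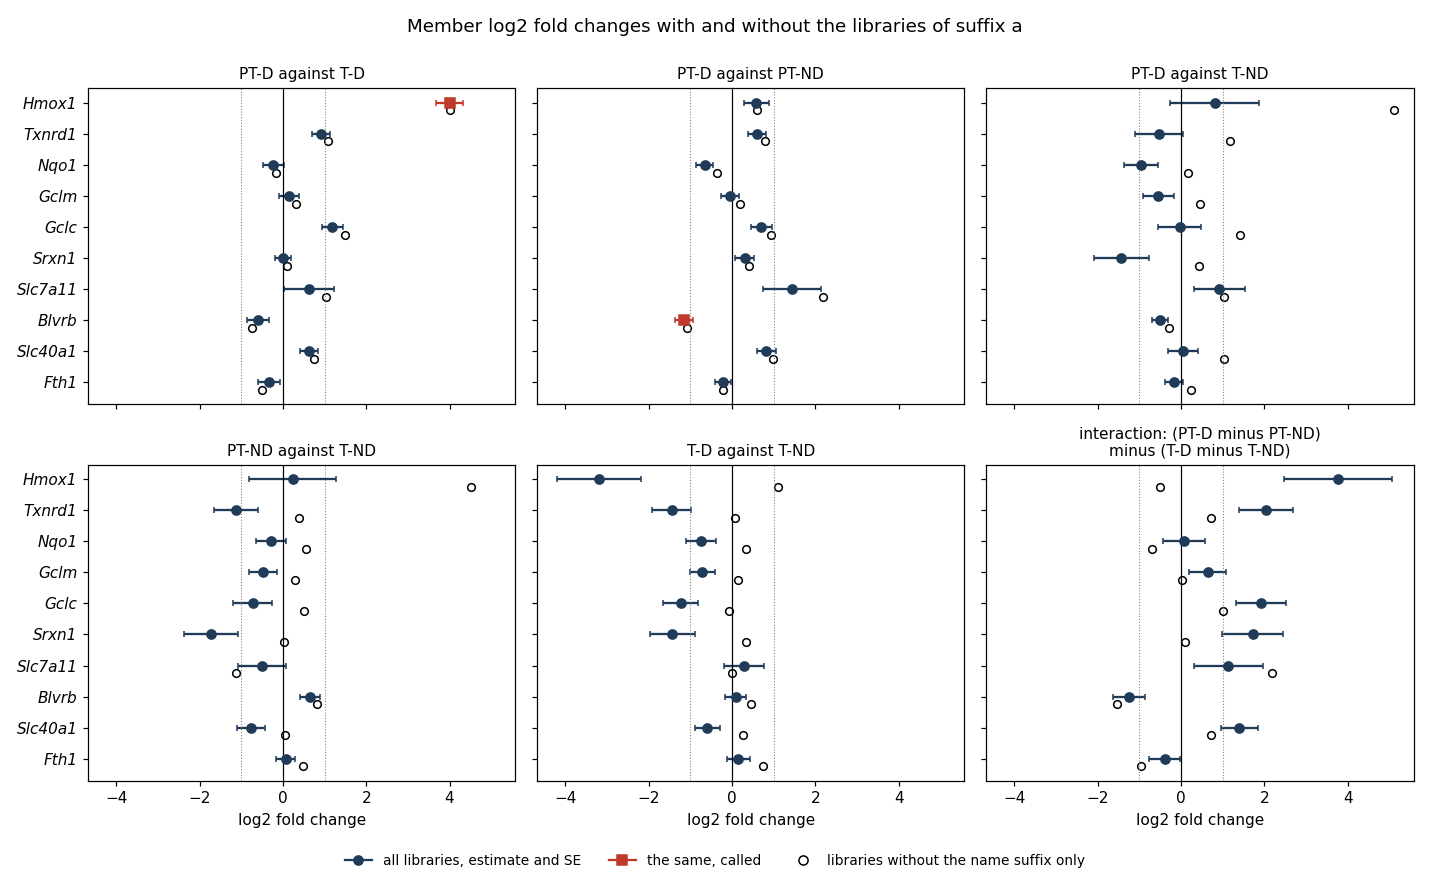
Log2 fold change of each of the 10 genes in the 5 pairs of groups and the interaction, 1 panel per comparison. Filled points are estimates from all libraries with bars of 1 SE, red squares are called genes, and open circles, the estimates from libraries without the letter a, lie far from the filled points of Hmox1 where T-ND is involved (-3.20 against 1.10 for T-D against T-ND).

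The rest of the pathway was followed in 5 lists of 83 genes, of which 82 were tested (Hamp, hepcidin, had 5 reads in all). In PT-D against T-D 1 of the 82 was called, where 0.193% of all genes were. That gene was Osgin1, an NRF2 target that limits growth under oxidative stress. It rose by 1.22 ± 0.19 on the log2 scale (edgeR adjusted p = 0.0263), from T-D kidneys at 1037, 1572, 1256 and 1138 normalised counts to PT-D kidneys at 3064, 2426 and 3300.4. The call was lost without T-D replicate 1 or 3, without PT-D replicate 1 or 3, and when the letter was a term or lettered libraries were left out. Osgin1 was highest in PT-ND, at 2888, 5120.1 and 6668, and stood at 2662, 2343, 1484 and 1821 in T-ND. Of the 82 genes 50 had an estimate below 0, with a median of -0.13 beside 0.06 over all genes. DESeq2 called 3 of the pathway genes higher and 2 lower in this comparison, where it called 4.52% of its genes.

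Of 12 NRF2 regulators none was called in PT-D against T-D. Nfe2l2 itself held 2655, 2295 and 2390.3 normalised counts in PT-D and 2023, 2754, 2286 and 2872 in T-D, a log2 fold change of -0.03 (edgeR adjusted p = 0.956). Keap1, its inhibitor, was at 0.42 (adjusted p = 0.165). Bach1, the heme-sensing repressor, held 927, 1350.4 and 1491 in PT-D and 684, 689, 508 and 335 in T-D, at 1.17 with an adjusted p of 0.0683. Sqstm1, p62, an NRF2 target that also binds KEAP1, held 30143, 24025 and 42056 in PT-D and 11722, 18581, 15810.1 and 15649 in T-D, at 1.05 with an adjusted p of 0.0685. Both missed the threshold in edgeR and passed it in DESeq2 (1.15 and 1.02). In T-ND, Sqstm1 split as Txnrd1 did, at 46878, 77348, 13357 and 11781. Maff, a small MAF partner, rose in PT-D against T-ND by 1.25 (adjusted p = 0.0324, lost without any 1 of T-ND replicates 1, 2 and 4 or any PT-D replicate, and without the lettered libraries, where it was 0.89). It held 217, 184, 409 and 292 in T-ND and 628 or more in all other libraries.

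**Figure D4:**
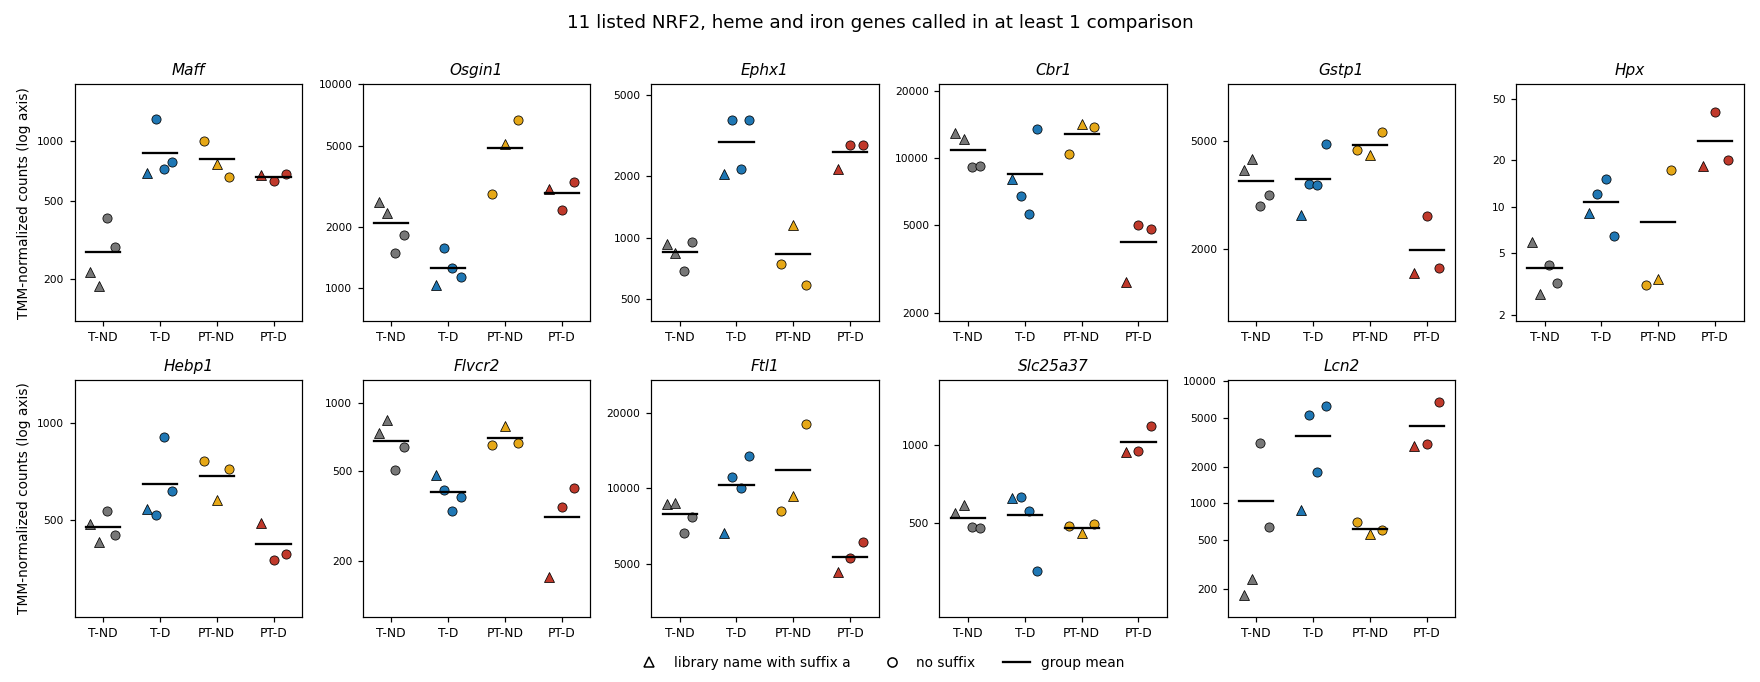
Normalised read count of named pathway genes that are not among the 10, in every kidney, on log axes, by group. Points are mice, bars are group means, triangles are libraries with the letter a, and Ephx1 is at 2064 or more in all 7 diabetic kidneys and at 1159 or less in all 7 nondiabetic ones.

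Among 26 other NRF2 targets, those that were called did not move in 1 direction. Ephx1, microsomal epoxide hydrolase, rose in every pair that sets STZ against no STZ. Its normalised counts were 2064, 3762, 2169.6 and 3766 for T-D, 2168, 2847 and 2842 in PT-D, 744, 1159 and 587 in PT-ND and 930.4, 839, 689 and 951 in T-ND. Its log2 fold change was 1.66 in PT-D against PT-ND (edgeR adjusted p = 0.0041), 1.61 in PT-D against T-ND (0.00387, and 1.78 without the lettered libraries) and 1.77 in T-D against T-ND (0.0132). The last call was lost without T-ND replicate 1, T-ND replicate 2 or T-D replicate 2, and without the lettered libraries. Cbr1, a carbonyl reductase, fell in PT-D against PT-ND by -1.62 (0.00412), from 10424, 14291 and 13818 to 2774, 4986 and 4792. It also fell against T-ND by -1.39 (0.0249), a call lost without T-ND replicate 1, 2 or 4 or PT-D replicate 2 or 3, and without the lettered libraries, where the value was -0.91. Gstp1, a glutathione transferase with a close paralogue, fell in PT-D against PT-ND by -1.28 (0.00547). Ephx1 in PT-D against PT-ND and against T-ND, and Cbr1 and Gstp1 in PT-D against PT-ND, kept their calls under all alternatives tried.

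The 11 genes of heme synthesis and breakdown had a median log2 fold change of -0.56 in PT-D against T-D, beside 0.06 over all genes tested, with 10 of the 11 below 0 and none called. Hmox2, the constitutive heme oxygenase, held 646, 725 and 614 normalised counts in PT-D and 819, 776, 927 and 1430.0 in T-D (-0.58, edgeR adjusted p = 0.153). Alas1, the first and rate-limiting enzyme of heme synthesis outside red cells, was at -0.43 (0.248), Alad, the next enzyme, at -0.63 (0.0977) and Blvra, the main biliverdin reductase, at -0.56 (0.126). In PT-D against PT-ND the median was -0.47, beside 0.05 over all genes tested. There 4 of the 11, Alad, Hmox2, Urod and Uros, had an edgeR adjusted p under 0.05 with a fall too small to be called. Many genes differed in that pair, where 6493 of the 22303 tested had an unadjusted edgeR p under 0.05. Nothing is read from the 4. The red cell form Alas2 varied from 2.26 to 190.1 normalised counts between mice, while the red cell genes summed to between 61.5 and 838 CPM.

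Heme transport and scavenging held 9 genes, and none was called in PT-D against T-D. Flvcr2, a relative of the heme exporter FLVCR1, fell in PT-D against PT-ND by -1.16 ± 0.27 (edgeR adjusted p = 0.0213), from 651, 788 and 666 normalised counts to 169.6, 347 and 421. The call was lost without PT-ND replicate 2 or 3, PT-D replicate 1 or the lettered libraries. Hpx, hemopexin, the plasma heme scavenger, was called in PT-D against T-ND (edgeR adjusted p = 0.0333) on 20, 55 and 25 reads against 5, 3, 4 and 3, close to the limit of this depth. The call was lost without T-ND replicate 1, 2 or 4 or PT-D replicate 2 or 3, and without the lettered libraries. Hp, haptoglobin, which binds free hemoglobin, ranged from 50.2 to 2717 normalised counts and had each group overlapping.

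Of the iron list, 24 of 25 genes were tested, and none was called by edgeR in PT-D against T-D (DESeq2 called 1, lower). Ftl1, the ferritin light chain, held 4641, 5283 and 6139 normalised counts in PT-D and 6663, 11098, 10028 and 13409 in T-D (-0.95, edgeR adjusted p = 0.0802). Against PT-ND (8145, 9310.4 and 17977) Ftl1 fell by -1.14 ± 0.27 (0.0226), a call lost without PT-ND replicate 3, where the value was -0.70, or without the lettered libraries. Tfrc, the transferrin receptor, was at -1.04 in PT-D against T-D (0.084). Lcn2, a siderophore-binding protein released by injured tubules and neutrophils, rose in PT-D against PT-ND by 2.77 ± 0.31 (0.0017), from 707, 558 and 605 to 2937, 3048 and 6790.2. Its call was lost in a joint fit of all 14 libraries (adjusted p = 0.0604). The neutrophil markers summed to 59.9 to 217 CPM in PT-D and 8.88 to 55.3 in PT-ND, and their part in Lcn2 was not tested. Slc25a37, mitoferrin-1, which brings iron into mitochondria, rose in the same pair by 1.09 (0.00375), from 489, 460.3 and 495 to 942, 949 and 1192. That call was lost without PT-D replicate 3.

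In PT-D against PT-ND 7 of the 82 genes were called, 3 higher and 4 lower, where 4.95% of all genes were. In PT-D against T-ND 4 were called (1.45% of all genes), in T-D against T-ND 1 (0.0673%) and in PT-ND against T-ND none (0.0809%). DESeq2 called 2 of the 82 in PT-ND against T-ND, Maff and Osgin1, and 1.1% of its genes. The interaction called 6, where 4.45% of all genes were. Among them were Ftl1 (-1.52, edgeR adjusted p = 0.0326), Gstp1 (-1.31, 0.0301), Hebp1 (-1.15, 0.0296), Maff (-1.96, 0.0186) and Slc25a37 (1.06, 0.036). None of the 6 was called from the libraries without the letter.

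The 5 genes whose pattern over the 14 libraries was most like that of Hmox1 were sought among 12155 genes with a mean of at least 50 normalised counts. Likeness was the root mean square distance between centred log2 levels, on which Hmox1 itself spread by 2.17. Nearest were Gm15318 (1.28), a noncoding RNA, Gm10819 (1.31), a pseudogene, Gys2 (1.40), liver-type glycogen synthase, Cyp2a5 (1.48), a cytochrome P450, and H2-T11-ps (1.54), a pseudogene. Cyp2a5 held 30099 and 34036 normalised counts in T-ND replicates 1 and 2 against 2443 and 4203 in replicates 3 and 4, and 7425, 7131 and 13786 in PT-ND. It parted from Hmox1 in PT-D, at 2207, 11969 and 6024, and was lowest in T-D, at 3081, 1995, 1760.4 and 1721. Of the pathway genes Sqstm1 ranked 15, Osgin1 17, Gclc 21 and Txnrd1 25.

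**Figure D5:**
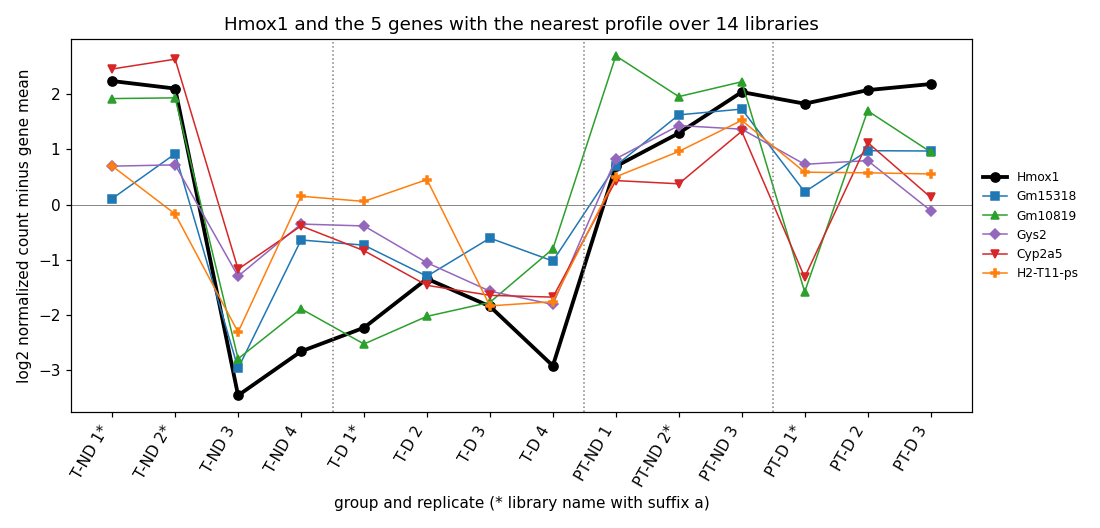
Centred log2 level of Hmox1 and of the 5 genes nearest to it in each of the 14 libraries, by group. Lines are genes, an asterisk marks a library name with the letter a, and every line lies below its own mean at T-ND replicate 3 while the lines part in PT-D.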

How the data were processed

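Per the labels and the study's methods, the authors trimmed unstranded mRNA reads of 14 whole kidneys, aligned them to GRCm39 with STAR (version not given in the sources used here) and deposited its read counts per gene, which take uniquely mapped reads and come without and with regard to strand. Those without strand entered the fits, so reads of overlapping or antisense genes cannot be told apart, and counts of genes with close copies (Fth1, Ftl1, glutathione transferases, globins) are uncertain. Symbols and positions came from GENCODE, which matched 56236 of 56980 IDs without their version. Only genes with over 10 reads in total were tested.

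Pairs were fitted from the libraries of the 2 groups alone, and the interaction from all 14, in edgeR 4.0.16 (R 4.3.3) with TMM, the two-sided quasi-likelihood test and Benjamini-Hochberg adjustment over all genes. SEs are of the log2 fold change. DESeq2 1.42.0, the study's tool, no count filter, a joint fit, the library-name letter, a replicate block, a call on adjusted p alone and leaving out each library were alternatives, and the models were tested on simulated counts. The 10 genes and the lists were chosen with earlier results of these data known. From the lists, genes fixed by name and every called gene were named except 1, which is not reported here, and the 5 genes most like Hmox1 were those with the smallest distance. Litters are not given in the labels used here, and p-values rest on the spread between single mice.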

Additional observations from a re-analysis of the deposited data

Results flagged for a closer look

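Of 65 gene and group pairs with 4 libraries that were looked at, 6 had 1 library far from the rest by Dixon's test, which chance gives in about 1 of 20. Gclm was at 8598 normalised counts in T-D replicate 4, with the next at 6264. Blvrb was at 543 in T-ND replicate 2, with the next at 347. Alas2 was at 97.4 in T-ND replicate 1 (next 16.1), Hp at 1118 in T-D replicate 1 (next 161), Lcn2 at 3105 in T-ND replicate 3 (next 642) and Maff at 1297 in T-D replicate 2 (next 783).

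The interaction term in edgeR was called for 5 named pathway genes, Ftl1, Gstp1, Hebp1, Maff and Slc25a37, where 4.45% of all genes were called. Of 21 alternatives the call was lost in 8 for Ftl1, 6 for Gstp1, 6 for Hebp1, 2 for Maff and 10 for Slc25a37. Each of these calls was lost without the lettered libraries and without PT-D replicate 3. The preterm minus term difference in log2 effect was -1.52 for Ftl1, -1.31 for Gstp1, -1.15 for Hebp1, -1.96 for Maff and 1.06 for Slc25a37.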

How the results depend on the processing

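Of the 10 genes, 1 was called in PT-D against T-D, and 2 with DESeq2 or with no count filter. Without 1 library there were 1 to 2 (Gclc joined Hmox1 without PT-D replicate 1). In PT-D against PT-ND 1 was called, 0 without the lettered libraries, 2 on adjusted p alone and 1 to 3 without 1 library (3 without PT-D replicate 1). In PT-D against T-ND none was called, 3 without the lettered libraries and 0 to 0 without 1 library. In T-D against T-ND none was, and 0 to 1 without 1 library. In PT-ND against T-ND none was, 1 without the lettered libraries and 0 to 0 without 1 library. In the interaction none was, 5 with DESeq2, 5 with no count filter and 0 to 2 without 1 library. Of the 82 pathway genes, 1 was called in PT-D against T-D, and 5 with DESeq2, 5 with no count filter, 3 in the joint fit, 0 with the letter as a term, 2 with the replicate block, 0 without the lettered libraries and 0 to 3 without 1 library. In PT-D against T-ND 4 were, 1 with the replicate block (Ephx1, with Cbr1, Hpx and Maff lost), 2 without the lettered libraries and 1 to 9 without 1 library (9 without T-ND replicate 3). In T-D against T-ND 1 was, 2 each with DESeq2, no count filter, the joint fit or the letter as a term, 0 without the lettered libraries and 0 to 3 without 1 library. In PT-D against PT-ND 7 were, 11 with no count filter, 21 on adjusted p alone and 5 to 10 without 1 library. In PT-ND against T-ND none was, 2 each with DESeq2 or no count filter, 1 each in the joint fit or with the letter as a term and 0 to 1 without 1 library. In the interaction 6 were, 0 without the lettered libraries and 0 to 6 without 1 library (0 without PT-D replicate 3). The cause was not tested, and leaving out libraries also leaves fewer samples. Calls over all genes move with the setting too, in PT-D against PT-ND from 4.95% to 2.67% without PT-ND replicate 3. That share was taken for only some of these settings, so no change in a count is read as particular to the listed genes. Of the recomputed log2 fold changes of the 10 genes, 922 moved by less than the spread between mice and 38 by more. In pairs with T-ND and in the interaction that spread takes in the split within T-ND. A move below it is therefore not read as stability. The replicate block rests on a shared number alone: 2 of 19 same-numbered pairs of mice had deviations correlated by over 0.1 (median -0.11), and not every mouse correlated best with its own number. Depth limits Slc7a11, Hpx and Hamp.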
